A study of Mus musculus with 6 samples.

Results

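Homeostatic microglia genes are the set by which resting microglia, the resident macrophages of the brain, are recognised. The 10 genes described here were P2ry12, P2ry13, Gpr34, Cx3cr1, Csf1r, Tmem119, Siglech, Fcrls, Selplg and Sall1, taken by gene symbol from the 36210 gene rows of the deposited expression table, and all 10 were found and passed the filter on low counts. They were measured in RNA that the labels assign to adult astrocytes from brains of 8-month-old APP/PS1 mice, a transgenic line that forms amyloid plaques. 3 libraries came from mice given AVE0991 at 10 mg/kg and 3 from mice given vehicle (0.9% sterile saline), both injected intraperitoneally every day over 30 days. AVE0991 is a synthetic agonist of the receptor for angiotensin-(1-7). All 6 libraries carry the APP/PS1 transgenes, and untreated or wild-type brains were not analysed here. The sources used here do not give the promoter of the transgenes, the sex of the mice or whether each library is 1 animal, so p-values measure the spread between libraries, which may be technical.

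Microglia depend on signalling through the CSF1 receptor for survival and on TGF-beta for their resting gene programme. Their P2Y receptors sense ADP released by damaged cells and steer the fine processes toward it, and the fractalkine receptor links them to neurons. In amyloid models, microglia that gather at plaques are known to lower many of these genes while raising a separate set that includes Apoe, Axl and Clec7a.

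Gene rows held 44583274 to 50066615 estimated counts per library, and single members held 77 to 8097 counts in a library. The label of astrocytes was checked against marker genes on the FPKM scale, which allows for gene length. The median level over a list of 10 astrocyte markers was 109 FPKM in AVE0991 and 70.9 FPKM in vehicle libraries, and over 10 neuron markers 126 FPKM in AVE0991 and 138 FPKM in vehicle libraries. Over 10 mature oligodendrocyte markers it was 81.1 FPKM in AVE0991 and 84.1 FPKM in vehicle libraries. The 10 microglial genes had medians of 8.05 FPKM in AVE0991 and 9.15 FPKM in vehicle libraries. The neuron median exceeded the astrocyte median in both groups, so the libraries held RNA of mixed brain cells and not of astrocytes alone. In bulk RNA of this kind, fewer microglia and less RNA per microglial cell cannot be told apart. AVE0991 replicates 2 and 3 stood apart: 10 cerebellar granule cell markers summed to 397, 2421 and 2306 CPM in replicates 1, 2 and 3 of AVE0991, against 322 to 367 CPM in vehicle libraries. The part of this difference in the values below was not tested, and log2 fold changes of the 10 genes are also given without those libraries.

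In both groups Csf1r was the most abundant of the 10 genes and Gpr34 the least. Csf1r averaged 38.5 ± 5.15 FPKM in AVE0991 and 36.1 ± 2.65 FPKM in vehicle libraries (SD, n = 3 each). Gpr34 averaged 1.41 ± 0.611 FPKM in AVE0991 and 3.21 ± 0.0866 FPKM in vehicle libraries. The span between these levels was 27.4-fold in AVE0991 and 11.3-fold in vehicle libraries. Selplg, Cx3cr1 and Tmem119 followed Csf1r at 13.7 to 16.3 FPKM in AVE0991 and 14.3 to 17.3 FPKM in vehicle libraries, and each neighbour in this trio overlapped the next. Fcrls and Sall1 came next in AVE0991 libraries at 8.46 and 7.64 FPKM, followed by Siglech at 5.25 and P2ry12 at 4.92 FPKM. Vehicle libraries had Fcrls at 9.80, P2ry12 at 8.50, Sall1 at 7.12 and Siglech at 5.78 FPKM, and neighbours in this stretch of the order overlapped in both groups. P2ry13 stood ninth at 2.26 FPKM in AVE0991 and 3.44 FPKM in vehicle libraries. P2ry12 thus ranked eighth in AVE0991 and sixth in vehicle libraries, without a test of the difference in rank.

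The 3 related G protein-coupled receptors P2ry12, P2ry13 and Gpr34 were lower in every AVE0991 library than in any vehicle library, whereas the ranges of the other 7 genes overlapped. None of the 10 genes passed edgeR's quasi-likelihood test at an adjusted p under 0.05 in either direction, where 0.83% of all 20363 genes tested were called lower and 0.0344% higher (0.864% in either direction). At an unadjusted p under 0.05, 3 of 10 members were lower and 0 higher, against 12.7% and 10.9% of all genes. The 3 members without overlap between groups compare with 16.3% of all genes lower and 14.3% higher on that basis. DESeq2 and limma-voom with sample quality weights each called 1 member lower, Gpr34, where they called 6.77% and 3.54% of all genes lower. The median log2 fold change of the 10 genes was -0.08, beside -0.01 over all genes tested.

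**Figure D1:**
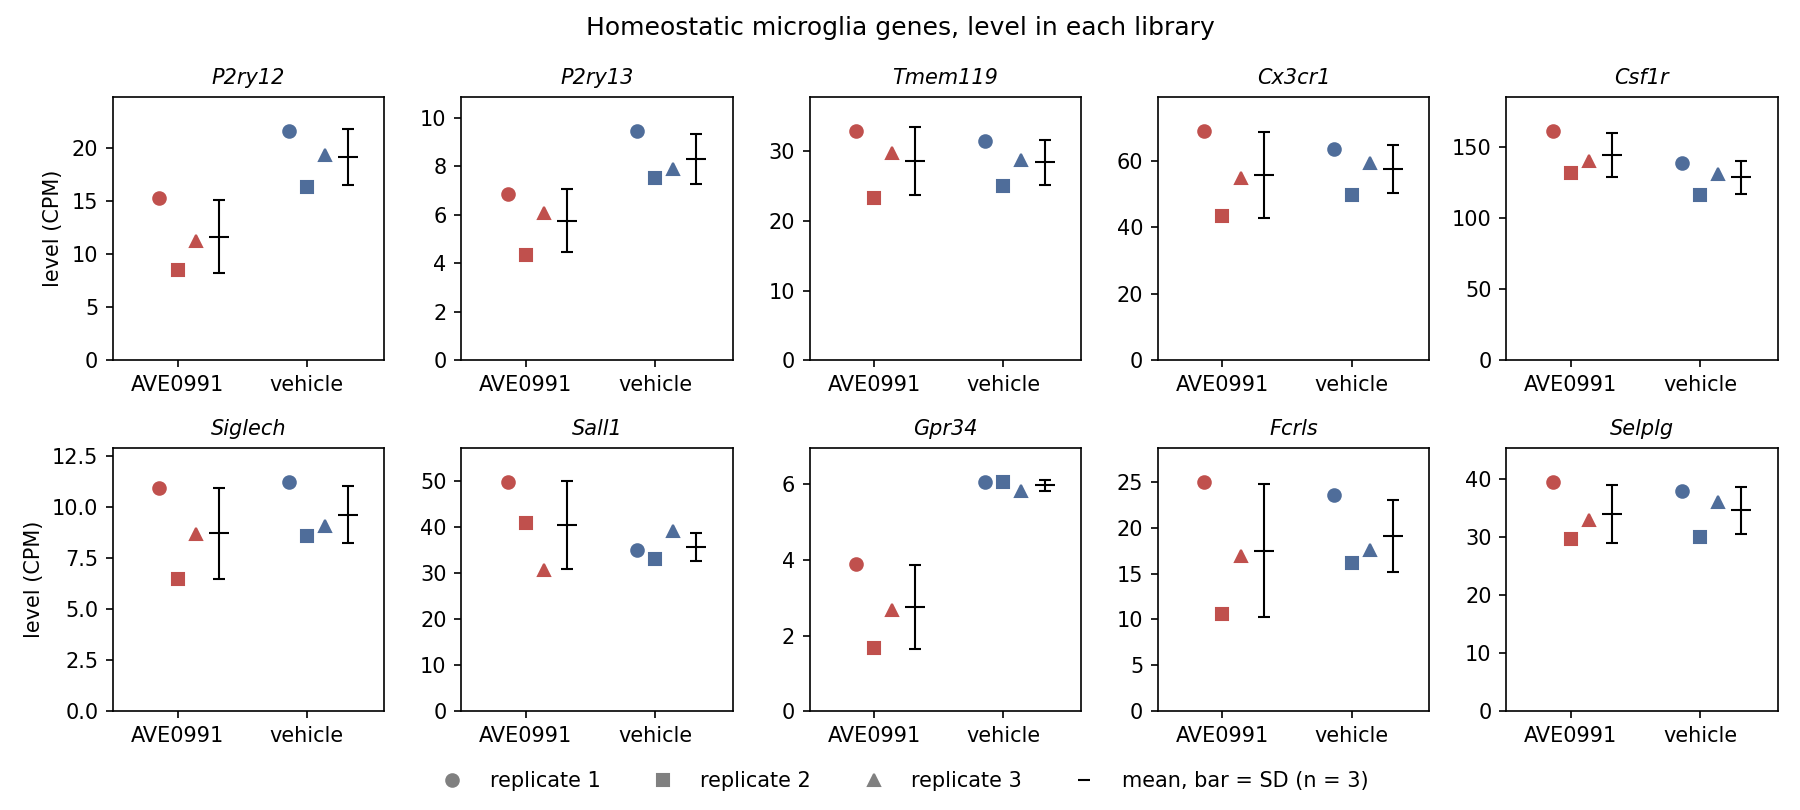
Level of each of the 10 genes in CPM (read counts scaled by TMM library size) in the 3 AVE0991 libraries (left, red) and the 3 vehicle libraries (right, blue); symbols mark the replicate number and bars the mean and SD of 3. P2ry12, P2ry13 and Gpr34 separate the groups, and the other 7 genes overlap.

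P2ry12 encodes an ADP receptor that draws microglial processes to sites of damage and is widely used to tell microglia from other macrophages. It stood at 15.3, 8.49 and 11.2 CPM in replicates 1, 2 and 3 of AVE0991, against 21.6, 16.4 and 19.4 CPM in vehicle replicates 1, 2 and 3. The highest AVE0991 library lay just below the lowest vehicle library. The means were 11.7 ± 3.40 CPM in AVE0991 and 19.1 ± 2.63 CPM in vehicle libraries, a log2 fold change of -0.71 (SE 0.22, 95% interval -1.24 to -0.18, edgeR adjusted p = 0.137). Without AVE0991 replicate 1 it passed, at -0.95 (edgeR adjusted p = 0.0269); 4.76% of all genes were called lower in that fit. Without AVE0991 replicates 2 and 3 it was -0.32.

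P2ry13, a second ADP receptor, lies beside P2ry12 on chromosome 3. It stood at 6.86, 4.35 and 6.08 CPM in replicates 1, 2 and 3 of AVE0991, against 9.46, 7.51 and 7.91 CPM in vehicle replicates 1, 2 and 3. The groups again did not overlap, with AVE0991 replicate 2 the lowest library. The log2 fold change was -0.52 (SE 0.20, 95% interval -1.01 to -0.04, edgeR adjusted p = 0.187), and -0.26 without AVE0991 replicates 2 and 3.

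Both genes lie inside Med12l, a Mediator subunit gene on the opposite strand. The sources used here do not say whether strand was used in counting, and reads of P2ry12 or P2ry13 and Med12l cannot be told apart where they overlap. Med12l itself stood at 113 ± 20.8 CPM in AVE0991 and 88.8 ± 2.53 CPM in vehicle libraries (log2 fold change 0.35, edgeR adjusted p = 0.209). Without AVE0991 replicates 2 and 3 its log2 fold change was 0.02. P2ry14, the nucleotide-sugar receptor of the same cluster, was measured at 0.482 ± 0.0897 CPM in AVE0991 and 0.80 ± 0.364 CPM in vehicle libraries (log2 fold change -0.73, edgeR adjusted p = 0.302). Vehicle replicate 2 held the highest level, 1.21 CPM, and without it the log2 fold change was -0.30.

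Because neighbouring P2ry12 and P2ry13 both lay lower in every AVE0991 library, the 250 bases before each start site are shown, with Cx3cr1, whose groups overlapped, beside them. The sequences are RefSeq promoters of build GRCm38.p6, read 5′ to 3′ on the minus strand in all 3 genes, and capitals mark AGGAAG, letters that hold the core bound by ETS factors such as PU.1, a regulator of macrophage genes.
P2ry12, chr3:59262986-59263235: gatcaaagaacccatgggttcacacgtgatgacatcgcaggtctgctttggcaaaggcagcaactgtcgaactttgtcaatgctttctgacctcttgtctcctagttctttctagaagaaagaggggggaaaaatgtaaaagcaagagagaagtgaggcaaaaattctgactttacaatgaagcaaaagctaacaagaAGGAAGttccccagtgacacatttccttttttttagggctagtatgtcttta
P2ry13, chr3:59210883-59211132: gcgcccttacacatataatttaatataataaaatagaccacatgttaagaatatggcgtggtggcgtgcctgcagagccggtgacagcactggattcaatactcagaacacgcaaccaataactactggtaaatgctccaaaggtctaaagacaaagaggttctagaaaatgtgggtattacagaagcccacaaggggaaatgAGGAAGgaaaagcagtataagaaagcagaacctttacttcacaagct
Cx3cr1, chr9:120068297-120068546: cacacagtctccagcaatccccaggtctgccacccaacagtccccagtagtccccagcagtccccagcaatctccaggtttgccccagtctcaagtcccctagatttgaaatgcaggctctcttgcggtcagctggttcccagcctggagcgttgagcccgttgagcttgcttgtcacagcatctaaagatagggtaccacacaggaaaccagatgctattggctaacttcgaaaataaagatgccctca
AGGAAG or its reverse complement CTTCCT occurred 1 time in the P2ry12 window, 52 bases before the start, and 1 time in the P2ry13 window, 47 bases before it. It was not found in the Cx3cr1 window, which says only that these letters are not there. The shorter core GGAA or its reverse complement TTCC occurred in all 3 windows and in 93.5% of all 32851, so the contrast with Cx3cr1 rests on the letters chosen beside the core. The motif was chosen after the sequences were read, and 29.5% of 32851 windows of the same length held it. It was held by 4 of the 6 members with a promoter entry (P2ry12, P2ry13, Fcrls and 1 of 3 Sall1 starts). Gpr34, which was also lower in every AVE0991 library, had no promoter entry, so its window was not read. Both P2Y windows had a GC content of 41.6%, and the Cx3cr1 window 53.6%.

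Gpr34, a receptor of the same family that responds to lysophosphatidylserine, showed the largest difference of the 10 genes. It stood at 3.89, 1.68 and 2.68 CPM in replicates 1, 2 and 3 of AVE0991, against 6.04, 6.05 and 5.80 CPM in vehicle replicates 1, 2 and 3. Vehicle libraries agreed closely, while AVE0991 replicate 2 lay far below AVE0991 replicate 1. The log2 fold change was -1.12 (SE 0.30, 95% interval -1.82 to -0.41, edgeR adjusted p = 0.113), a 2.17-fold lower level. It passed with DESeq2 (-1.10, adjusted p = 0.0124), with limma-voom (-1.21, adjusted p = 0.0359) and with edgeR without AVE0991 replicate 1 (-1.45, adjusted p = 0.0192). Without AVE0991 replicates 2 and 3 it was -0.61. The authors' deposited table gives it a log2 fold change of -1.09 with a DESeq2 q-value of 0.0204, where 2.93% of its gene rows were lower at a q-value under 0.05. In the same authors' deposited table P2ry12 stands at -0.69 with a q-value of 0.109 and P2ry13 at -0.50 with a q-value of 0.261. Gpr34 lies on chromosome X inside Cask, on the opposite strand, and Cask had a log2 fold change of -0.25 (79.3 ± 2.75 CPM in AVE0991 and 94.1 ± 5.18 CPM in vehicle libraries, edgeR adjusted p = 0.166).

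The other 7 genes had log2 fold changes between -0.14 and 0.18, with edgeR adjusted p of 0.432 to 0.972. Their 95% intervals still allow differences in either direction. Without AVE0991 replicates 2 and 3 all 7 were above 0, from 0.19 for Siglech to 0.49 for Sall1, with Selplg at 0.20, Tmem119 at 0.22, Cx3cr1 at 0.27, Csf1r at 0.34 and Fcrls at 0.40.

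Among receptors, Csf1r, the tyrosine kinase receptor for CSF1 and IL-34, stood at 161, 132 and 140 CPM in replicates 1, 2 and 3 of AVE0991, against 139, 116 and 131 CPM in vehicle replicates 1, 2 and 3. The ranges overlapped, and the log2 fold change of 0.17 had a 95% interval of -0.12 to 0.45. Cx3cr1, the receptor for the neuronal chemokine fractalkine, stood at 69.0, 43.3 and 54.7 CPM in the AVE0991 libraries, against 63.6, 49.7 and 59.3 CPM in vehicle libraries. The vehicle range lay wholly inside the AVE0991 range, at a log2 fold change of -0.05 (95% interval -0.48 to 0.39).

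Of the surface proteins, Tmem119, a membrane protein used as a microglial marker, stood at 32.9, 23.2 and 29.7 CPM in the AVE0991 libraries, against 31.4, 25.0 and 28.7 CPM in vehicle libraries. Its log2 fold change was 0.01 (95% interval -0.36 to 0.38). Selplg encodes a glycoprotein bound by selectins. It stood at 39.6, 29.8 and 33.0 CPM in the AVE0991 libraries, against 37.9, 30.1 and 36.1 CPM in vehicle libraries (log2 fold change -0.02, 95% interval -0.36 to 0.32).

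Siglech, a sialic acid-binding receptor that signals through the adaptor Tyrobp, stood at 11.0, 6.51 and 8.69 CPM in the AVE0991 libraries, against 11.2, 8.59 and 9.10 CPM in vehicle libraries (log2 fold change -0.14, 95% interval -0.65 to 0.37). Fcrls, an Fc receptor-like scavenger receptor, stood at 25.0, 10.6 and 16.9 CPM in the AVE0991 libraries, against 23.5, 16.1 and 17.5 CPM in vehicle libraries. Its SD relative to the mean was the largest of these 7 in both groups, and its log2 fold change of -0.12 had a 95% interval of -0.87 to 0.62.

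Sall1, a zinc finger transcription factor that maintains microglial identity, differed in pattern from the rest. It stood at 49.9, 41.0 and 30.7 CPM in replicates 1, 2 and 3 of AVE0991, against 35.1, 33.1 and 39.1 CPM in vehicle replicates 1, 2 and 3. The AVE0991 libraries lay on both sides of the vehicle range, at a log2 fold change of 0.18 (95% interval -0.25 to 0.61).

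**Figure D2:**
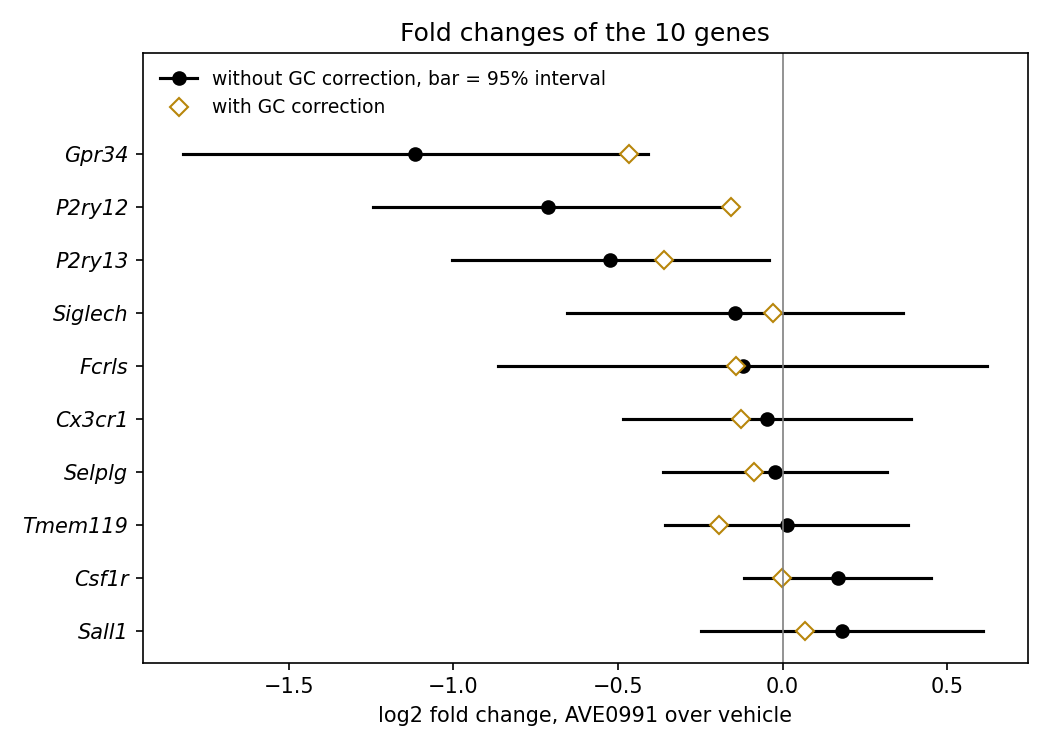
Log2 fold change of each of the 10 genes, AVE0991 over vehicle, from edgeR with its 95% interval (black), and the same after a per-library correction for transcript GC content (open diamonds). Gpr34, P2ry12 and P2ry13 lie furthest below 0 without the correction, at -1.12, -0.71 and -0.52, and stand at -0.47, -0.16 and -0.36 with it, where Tmem119 (-0.19) lies below P2ry12.

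Most of the 10 genes varied together across libraries. AVE0991 replicate 2 was the lowest AVE0991 library for 9 of 10 members, and vehicle replicate 2 the lowest vehicle library for 9 of 10. Centred on its own mean over the 6 libraries, the average log2 level of the 10 genes was 0.22, -0.46 and -0.15 in AVE0991 replicates 1, 2 and 3, against 0.28, -0.02 and 0.14 in vehicle replicates 1, 2 and 3. The Pearson correlation of each member with the mean of the other 9, over 6 libraries that share depth and scaling, was 0.717 to 0.952 for 8 members, 0.301 for Csf1r and 0.0866 for Sall1. Siglech followed the others most closely.

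The same average profile was compared with 15047 other named genes of at least 1 CPM. The most similar included Fam124a, Chrdl1, Gsg1l, Tnip2, Sorbs2, Tnfrsf19, Dmrtc1a, Sox2 and Bco2, with Pearson's r of 0.984 to 0.989 over 6 libraries, and none of them was on a list of microglial genes. Among 30 other microglia-enriched genes, such as Itgam and C1qa, the median r was 0.635, and 9 of 30 exceeded 0.8, against a median of -0.106 and 9.54% over all genes searched.

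The 10 genes were also read as levels relative to those 30 other genes, which did not all follow the members. Their Pearson's r with the average profile ran from -0.772 (Itgb5) to 0.949. The part of other cell types in the 30 genes was not tested. The 30 genes summed to 642 to 801 CPM in AVE0991 and 629 to 697 CPM in vehicle libraries, with a median log2 fold change of 0.02. By edgeR 1 of the 30 was called lower (Tgfbr1) and 0 higher. At an unadjusted p under 0.05, 2 were higher and 1 lower, against 10.9% and 12.7% of all genes. DESeq2 and limma-voom each called 2 of the 30 higher and 1 lower. Over all genes DESeq2 called 994 of 19554 higher and 6.77% lower, and limma-voom 449 of 20363 higher and 3.54% lower. The next by p were Itgb5, an integrin chain (0.62, edgeR adjusted p = 0.104), Lyn, a kinase of immune receptors (0.73, 0.126), Mertk, a phagocytic receptor (0.46, 0.212), and Laptm5, a lysosomal protein (0.27, 0.236), all log2 fold changes. Without AVE0991 replicates 2 and 3, Itgb5 stood at 0.26, Lyn at 0.34 and Laptm5 at 0.42.

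Within each library, the mean log2 level of the 10 genes exceeded that of the 30 by 0.68, 0.44 and 0.49 in AVE0991 replicates 1, 2 and 3, against 0.81, 0.71 and 0.87 in vehicle replicates 1, 2 and 3. The AVE0991 values all lay below the vehicle values, with a mean difference of -0.26, and -0.11 without AVE0991 replicates 2 and 3. P2ry12 stood at -0.00, -0.40 and -0.27 relative to the 30 genes in AVE0991 replicates 1, 2 and 3, against 0.57, 0.37 and 0.61 in vehicle replicates 1, 2 and 3. The same 3 members, P2ry12 (-0.74), P2ry13 (-0.54) and Gpr34 (-1.18), were without overlap on this scale, and 14.6% of all genes were lower without overlap when read in the same way. Differences of the other 7 ran from -0.19 for Fcrls to 0.17 for Csf1r, and their groups overlapped.

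**Figure D3:**
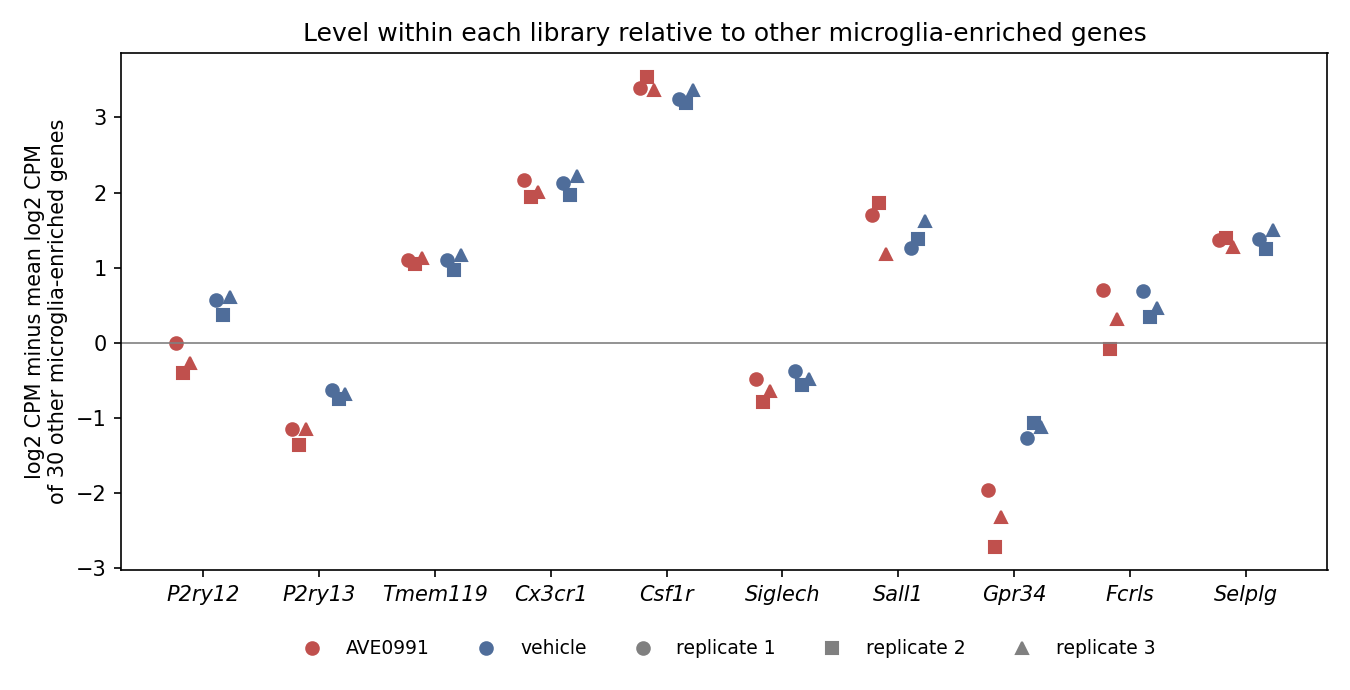
Log2 CPM of each of the 10 genes minus the mean log2 CPM of 30 other microglia-enriched genes in the same library, for AVE0991 (red, left in each pair) and vehicle (blue, right) libraries; symbols mark the replicate number. P2ry12, P2ry13 and Gpr34 are lower in all 3 AVE0991 libraries, with mean differences of -0.74, -0.54 and -1.18, and the other 7 overlap.

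Across the whole table, AVE0991 libraries held less of transcripts with a low GC content, and the 3 separated members were the 3 of lowest GC content. Gpr34 had a GC content of 37.1%, P2ry12 of 38.6% and P2ry13 of 44.7%, and the other 7 ranged from 45.5% (Siglech) to 59.1% (Tmem119). Across the 10 genes, GC content and log2 fold change had a Spearman rho of 0.939, and across all 15607 tested genes with a GC value 0.504; genes share libraries and are not independent replicates. All genes with up to 40% GC had a median log2 fold change of -0.54, between 0 and the values of P2ry12 and Gpr34, and those of 40 to 45% GC had a median of -0.25, between 0 and the value of P2ry13. All 3 members thus lay below the median of genes of like GC content.

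After a per-library correction for GC content the log2 fold changes were -0.47 for Gpr34 (SE 0.31, edgeR adjusted p = 0.499), -0.36 for P2ry13 (SE 0.21, adjusted p = 0.442) and -0.16 for P2ry12 (SE 0.23, adjusted p = 0.762). Corrected P2ry12 stood at 19.1, 10.2 and 13.3 CPM in replicates 1, 2 and 3 of AVE0991, against 17.3, 14.1 and 16.0 CPM in vehicle replicates 1, 2 and 3, so the groups overlapped through AVE0991 replicate 1. Corrected Gpr34 overlapped in the same way, at 5.08, 2.13 and 3.31 CPM in the AVE0991 libraries, against 4.66, 5.12 and 4.65 CPM in vehicle libraries. Corrected P2ry13 stood at 7.40, 4.63 and 6.44 CPM in the AVE0991 libraries, against 9.10, 7.11 and 7.44 CPM in vehicle libraries, where AVE0991 replicate 1 also lay above the lowest vehicle library. Relative to the 30 other microglia-enriched genes, corrected P2ry13 (-0.33) and Tmem119 (-0.15) were without overlap, where 9.68% of all genes were lower in this way. That share includes tested genes without a GC value, which were left uncorrected. The mean difference of the 10 genes from the 30 was -0.13 after the correction. The corrected excess over the 30 was 0.75, 0.51 and 0.55 in the AVE0991 libraries, against 0.73, 0.66 and 0.81 in vehicle libraries. These groups overlapped, with AVE0991 replicate 1 above vehicle replicates 1 and 2.

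**Figure D4:**
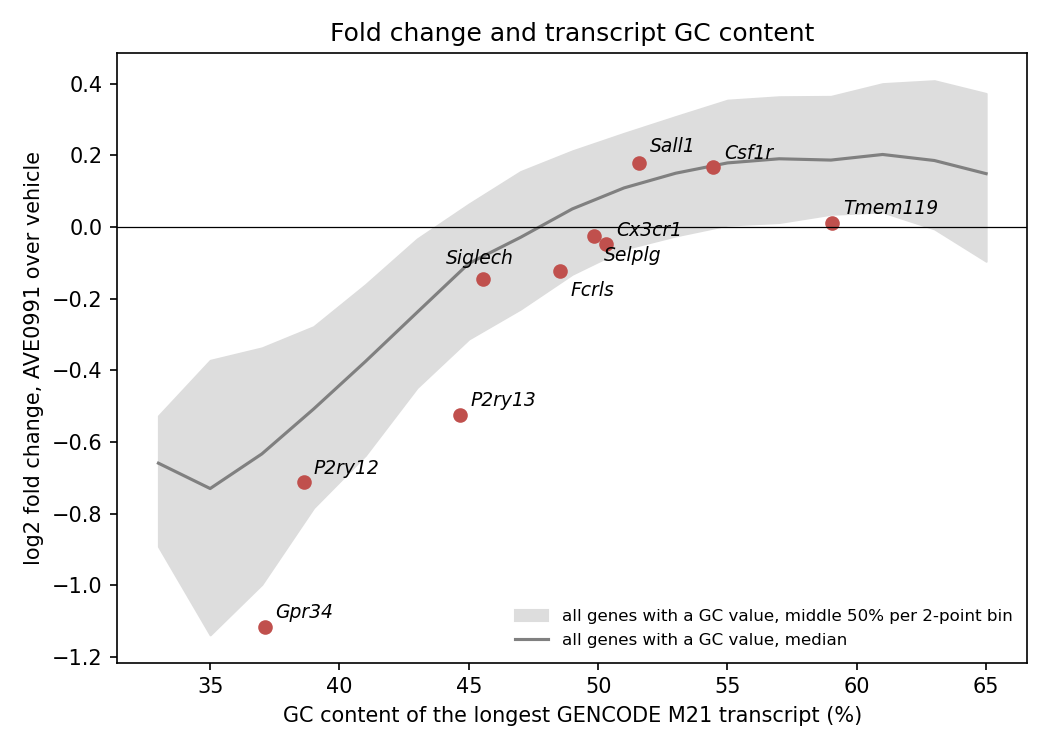
Log2 fold change (AVE0991 over vehicle) against GC content of the longest GENCODE M21 transcript for the 10 genes (red), with the median (grey line) and middle 50% (grey band) of all tested genes in 2-point GC bins. Fold changes of the 10 genes run from -1.12 at 37.1% GC (Gpr34) to values between -0.14 and 0.18 above 45% GC.

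The pathways that act on these genes were read from lists of their ligands, partners and regulators. Of 10 tested ligands and partners, 0 passed edgeR, DESeq2 or limma-voom, and 0 had an unadjusted p under 0.05. Csf1, a ligand of Csf1r, stood at 38.6 ± 8.95 CPM in AVE0991 and 31.0 ± 2.10 CPM in vehicle libraries, and Il34, its neuronal ligand, at 24.1 ± 9.14 CPM in AVE0991 and 28.5 ± 3.38 CPM in vehicle libraries. Cx3cl1, the fractalkine gene, stood at 341 ± 113 CPM in AVE0991 and 435 ± 21.9 CPM in vehicle libraries (log2 fold change -0.35, edgeR adjusted p = 0.402).

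In the TGF-beta list 1 of 11 genes passed edgeR, where 0.864% of all genes tested were called in either direction. At an unadjusted p under 0.05, 2 of the 11 were higher and 1 lower, against 10.9% and 12.7% of all genes. The gene that passed, Tgfbr1, is the same gene called among the 30 other microglia-enriched genes. Tgfbr1, the type I receptor through which TGF-beta maintains the resting programme, fell 1.71-fold to 13.5 ± 0.668 CPM in AVE0991, against 23.1 ± 2.36 CPM in vehicle libraries (log2 fold change -0.77, SE 0.11, edgeR adjusted p = 0.0430). It also passed with DESeq2 (adjusted p = 3.45e-05) and limma-voom (adjusted p = 0.0325), but missed the threshold in 11 of 19 alternatives. Its edgeR adjusted p was 0.0522 with DESeq2 size factors and 0.0590 with circular RNA rows in the same fit. Leaving out a single library gave log2 fold changes of -0.85 to -0.70, with an adjusted p of 0.109 to 0.227 except without AVE0991 replicate 1 (0.0151). Its GC content was 41.0%, with a corrected log2 fold change of -0.38 (edgeR adjusted p = 0.234). Other brain cells also express this receptor. Nrros, which presents TGF-beta on microglia, stood at a log2 fold change of 0.64 (edgeR adjusted p = 0.174), Smad3, a signal transducer, at 0.48 (0.211), Smad4, its partner, at 0.22 (0.250), and the ligand Tgfb1 at 0.21 (0.351); none of these passed.

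Of 12 microglial transcription factors 0 passed edgeR, DESeq2 or limma-voom. At an unadjusted p under 0.05, 3 were higher and 1 lower, against 10.9% and 12.7% of all genes. Spi1, which encodes PU.1, stood at 6.16 ± 1.45 CPM in AVE0991 and 5.46 ± 0.513 CPM in vehicle libraries. Bhlhe41 (log2 fold change 0.36, edgeR adjusted p = 0.145), Cebpa (0.41, 0.167), Mef2a (-0.33, 0.206), Smad3 and Mef2c (-1.01, 0.218) had the smallest p of the list. Neurons also express Mef2a and Mef2c, and without AVE0991 replicates 2 and 3 these stood at -0.12 and -0.41.

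Plaque-associated microglia genes, which differ from the homeostatic set in function, had a median log2 fold change of 0.23 over 18 genes. It was 0.12 with the GC correction, beside -0.01 over all genes tested without it. Whether these genes differed in microglia or in other cells was not tested. By edgeR 0 passed, with 5 higher and 1 lower at an unadjusted p under 0.05, against 10.9% and 12.7% of all genes. DESeq2 and limma-voom each called 2 higher, where they called 994 of 19554 and 449 of 20363 genes higher. The 5 of smallest p were B2m, the light chain of MHC class I (0.50, edgeR adjusted p = 0.0693), Axl, a phagocytic receptor (0.44, 0.104), Lgals3, a galectin (0.61, 0.146), Gpnmb, a glycoprotein (0.61, 0.154), and Clec7a, a pattern receptor (-0.90, 0.159), all log2 fold changes.

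Of 9 other P2Y receptors and neighbouring genes, 5 could be tested and 0 passed edgeR, DESeq2 or limma-voom. The 1 gene higher at an unadjusted p under 0.05 was Med12l, which is no receptor, and 0 were lower.

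By edgeR 0 of 10 astrocyte markers passed, but 7 were higher at an unadjusted p under 0.05, with a median log2 fold change of 0.63. At an adjusted p under 0.05, DESeq2 called 6 of the 10 higher and limma-voom 5. The 10 astrocyte markers summed to 6376, 7344 and 7908 CPM in replicates 1, 2 and 3 of AVE0991. In vehicle replicates 1, 2 and 3 they summed to 7013, 5648 and 6096 CPM, so AVE0991 replicate 1 lay inside the vehicle range. The 10 cerebellar granule cell markers had a median log2 fold change of 2.25, with 0 passing edgeR and 8 higher at an unadjusted p under 0.05. At an adjusted p under 0.05, DESeq2 called 8 of these 10 markers higher and limma-voom 4. Over all genes, 10.9% were higher and 12.7% lower by edgeR at an unadjusted p under 0.05. DESeq2 called 994 of 19554 genes higher and limma-voom 449 of 20363. Neuron, oligodendrocyte and endothelial markers had medians of 0.15, -0.07 and -0.10, with 0 passing edgeR. DESeq2 and limma-voom each called 1 endothelial gene lower, and at an unadjusted p under 0.05 edgeR had 1 neuronal gene higher, 1 neuronal gene lower and 1 endothelial gene lower. Oligodendrocyte markers varied widely within groups, summing to 5764, 12172 and 6106 CPM in replicates 1, 2 and 3 of AVE0991, against 3850, 8246 and 8307 CPM in vehicle replicates 1, 2 and 3. They were highest in AVE0991 replicate 2, where the average of the 10 microglial genes was lowest, and lowest in vehicle replicate 1, where it was highest. The part of these cell types in the microglial values was not tested.

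Markers of other myeloid and blood cells were scarce. 10 border macrophage markers summed to 41.5 to 48.4 CPM in AVE0991 and 40.3 to 44.3 CPM in vehicle libraries, whereas the 10 microglial genes summed to 301 to 415 CPM in AVE0991 and 309 to 378 CPM in vehicle libraries. Mrc1, the mannose receptor of border macrophages, stood at 4.22 ± 1.51 CPM in AVE0991 and 5.44 ± 1.09 CPM in vehicle libraries. Monocyte and neutrophil markers summed to 21.7 to 29.7 CPM in AVE0991 and 17.7 to 47.0 CPM in vehicle libraries. S100a9, a neutrophil protein, stood at 5.10 ± 1.82 CPM in AVE0991 and 10.2 ± 4.37 CPM in vehicle libraries. Ccr2, a monocyte chemokine receptor, stood at 0.188 ± 0.0979 CPM in AVE0991 and 0.537 ± 0.0302 CPM in vehicle libraries. By edgeR 0 of either list passed. At an unadjusted p under 0.05, 2 of 9 tested monocyte and neutrophil markers and 0 border macrophage markers were lower, against 12.7% of all genes. DESeq2 called 0 and limma-voom called Ccr2 lower (adjusted p = 0.0447), where it called 3.54% of all genes lower. Ccr2 held only 5 to 29 counts per library. Its log2 fold change was -1.49, and -0.99 with the GC correction (edgeR adjusted p = 0.328). Lymphocyte markers summed to 1.07 to 9.43 CPM in AVE0991 and 3.13 to 7.77 CPM in vehicle libraries. Of 10 such markers 4 could be tested, and 0 passed edgeR, with 1 lower at an unadjusted p under 0.05. No marker on these 3 lists was at 0 in all libraries.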

How the data were processed

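Estimated counts of 36210 gene rows, deposited by the authors with 1 column per library, were rounded to whole numbers; 81.6% were whole as deposited. Reads had been aligned with HISAT to mm9, per the submitters' processing notes, from rRNA-depleted dUTP libraries, per the labels' protocols. For the counting program, the annotation and whether strand was used: not given in the sources used here. FPKM values deposited by the authors, a unit worked out from the values, served for levels between genes. The log2 fold changes, p-values and q-values of the authors' table came from DESeq2, per the file headers, and its signs matched AVE0991 over vehicle.

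Counts were fitted in R 4.3.3 with edgeR 4.0.16 (filterByExpr, TMM, robust quasi-likelihood F test, no covariates), with Benjamini-Hochberg adjustment over 20363 genes and calls at an adjusted p under 0.05. The SE is the log2 fold change over the square root of F. Alternatives used DESeq2 1.42.0 and limma 3.58.1. Log2 CPM carried a prior count of 2. The GC correction subtracted a spline with 5 degrees of freedom on the GC content of the longest GENCODE M21 transcript, matched by Entrez identifier. A value was known for 10 of 10 members and for 15607 of 20363 tested genes, and genes without one were left uncorrected. This annotation is GRCm38, so it gave names, strands and GC content only. Fits were tested on simulated counts. Every pair of libraries differed beyond sampling noise (chi-square of at least 16.4 per gene), and all 6 counted as separate.

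All 10 members are named. From each list up to 5 genes of smallest p were named, and others by role; Cask was added after its values were seen. Members, lists and tests were chosen with earlier results of these data known. Protein sequences were not used here.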

Additional observations from a re-analysis of the deposited data

How the results depend on the processing

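The count of members called lower, 0 with edgeR, was 1 (Gpr34) with DESeq2 and with limma-voom with quality weights, and 0 to 2 without single libraries, the 2 being P2ry12 and Gpr34 without AVE0991 replicate 1. No member was called higher in any of the 19 alternatives. In these alternatives P2ry12 ranged from -0.95 to -0.16, P2ry13 from -0.67 to -0.26 and Gpr34 from -1.45 to -0.47 on the log2 scale, all below 0. The median of the 10 genes was -0.28 to 0.09 without single libraries and 0.21 without AVE0991 replicates 2 and 3. The mean difference from the 30 other microglia-enriched genes was -0.33 to -0.21 without single libraries, -0.13 with the GC correction, with or without the replicate block, and -0.11 without AVE0991 replicates 2 and 3.

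Replicate numbers are shared between groups. Over 20363 genes, same-numbered libraries did not deviate together (correlations of -0.0206, 0.092 and -0.353 for numbers 1, 2 and 3), so the numbers were not taken as pairs. The members differed from this, as replicate 2 was the lowest library of its group for 9 of 10 in AVE0991 and 9 of 10 in vehicle. With a block on replicate number the SE went from 0.22 to 0.14 for P2ry12 and from 0.31 to 0.17 for Fcrls. For Sall1 it rose from 0.18 to 0.19. Whether same-numbered libraries are pairs was not tested. With the replicate block 0 members were called, their median was -0.12 and edgeR called 0 genes, with 3937 at an unadjusted p under 0.05.

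Members near 0 changed sign. Tmem119, 0.01 in the edgeR fit reported, was -0.0008 with upper-quartile factors, -0.013 with a mean of at least 1 CPM, -0.0041 with circular RNA rows in the same fit, -0.072 and -0.077 on log2(FPKM + 1) and log2(FPKM + 0.1), -0.19 with the GC correction and -0.20 with the replicate block added. Csf1r was -0.0015 with the GC correction, Sall1 -0.0016 with limma-voom, and Spi1 -0.028 with the GC correction and -0.054 with the block added. Without single libraries the ranges were -0.10 to 0.15 for Tmem119, -0.23 to 0.11 for Cx3cr1, -0.34 to 0.032 for Siglech, -0.47 to 0.14 for Fcrls, -0.14 to 0.069 for Selplg and -0.52 to 0.025 for Il34. Without AVE0991 replicates 2 and 3, which leaves 1 AVE0991 library assumed to vary like the vehicle ones, Cx3cr1 was 0.27, Siglech 0.19, Fcrls 0.40, Selplg 0.20, Il34 0.21 and Cx3cl1 0.089. The causes were not tested. Over all genes edgeR called 169 lower and 7 higher, against 1324 and 994 by DESeq2, 721 and 449 by limma-voom, 1 and 1 with the GC correction, 1 and 1 with circular RNA rows, 995 and 1386 without AVE0991 replicate 1, and 0 and 0 without any other single library.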
